A study of Mus musculus with 8 samples.

Results

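The genes that encode neurotransmitter receptor subunits were followed across Litchi knockout and control cultures of mouse motor neurons. Members were found by name, as genes whose symbol marks an AMPA (Gria), NMDA (Grin1 to Grin3), kainate (Grik) or metabotropic glutamate (Grm) receptor, a GABA-A (Gabra, Gabrb, Gabrg, Gabrr) or GABA-B (Gabbr) receptor, a glycine receptor (Glra, Glrb), or a nicotinic (Chrna, Chrnb) or muscarinic (Chrm) acetylcholine receptor. Of 66 matching symbols, 64 had a probe, and 54 of these were kept because at least 1 group had a probe well above background on each of its arrays. They are 54 of 24633 genes tested. The other 2 symbols, the antisense transcripts Grin1os and Chrna1os, are not analysed here.

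Total RNA was profiled on 8 Agilent arrays, 2 for each of 4 groups. These were Litchi knockout and control cells at day 9 of differentiation, and the same genotypes at day 7. All groups came from a male embryonic stem cell line that carries Hb9-GFP, a fluorescent reporter of motor neuron fate, and all received retinoic acid and Sonic hedgehog as embryoid bodies. These were then taken apart and kept with GDNF, a neurotrophic factor, until RNA was collected. The labels describe no sorting, do not say how many knockout clones were used, and do not say whether replicates were separate cultures. The p-values therefore rest on the differences between replicate samples, and these may be technical.

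Fast excitation in the spinal cord runs through AMPA, kainate and NMDA receptors, tetrameric channels opened by glutamate, while fast inhibition runs through pentameric chloride channels opened by GABA or glycine. Metabotropic glutamate, GABA-B and muscarinic receptors act through G proteins, and nicotinic receptors are cation channels opened by acetylcholine, the transmitter that motor neurons themselves release. Subunit choice changes during maturation in several of these families, and in the rodent spinal cord the glycine receptor subunit Glra2 is known as the early form and Glra1 as the adult form.

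Every level below is a log2 signal with the 75th percentile of its own array set to 0, so a negative level means dimmer than that percentile and levels of different genes are not compared. A gene was called at a Benjamini-Hochberg adjusted p under 0.05 over all genes tested, from 1 limma fit of all 8 arrays, and changes are given ± their standard error (SE). Array brightness varied, with a 75th percentile between 649 and 1691 intensity units and between 55.9% and 67.9% of spots well above background. The arrays of replicate 1 were the brighter ones in every group. Litchi was found 0 times among the gene names, so the knockout could not be checked on these arrays. The cultures gave signal for all 8 measured motor neuron markers and all 10 pan-neuronal markers, along with 4 of 6 astrocyte and 3 of 6 skeletal muscle markers. The astrocyte markers Gfap and S100b and the muscle markers Myod1, Myf5 and Ckm were below background on both arrays of every group. The astrocyte list had a summed linear level between 121 and 221 over the 8 arrays, and the muscle list one between 0.288 and 0.741. In bulk RNA, fewer cells of a type and less RNA per cell cannot be told apart.

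Of the 54 kept members, 38 were well above background on all 8 arrays. All 4 AMPA, all 7 NMDA, all 5 kainate and both GABA-B subunit genes were kept, with 7 of 8 metabotropic glutamate, 14 of 15 GABA-A, 3 of 5 glycine, 9 of 13 nicotinic and 3 of 5 muscarinic genes. The 10 members not well above background were Grm6, Gabra6, Glra3, Glra4, Chrna1, Chrna6, Chrna10, Chrnb3, Chrm1 and Chrm5. Among these are genes known from other sites: Grm6 serves bipolar cells of the retina, Gabra6 cerebellar granule cells and Chrna1 muscle. Glra3 and Chrna1 were above background on 1 array each. A gene could be kept through the 1 group in which it was bright, so counts over the kept genes describe these arrays and are no support for a difference.

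On day 9, knockout cells held less RNA than control cells for subunits of several excitatory and inhibitory receptors, and more for Grin2c and Glra1. Of the 54 members, 6 fell (11.1%, against 3.96% of all genes tested) and 2 rose (3.7%, against 1.5% of all genes), where 5.46% of all genes were called in either direction. The changes of the 54 members ran from -2.21 to 2.46, with a median of -0.53 beside -0.02 over all genes, and 41 were below 0 (75.9%, against 52.1% of all genes). At an unadjusted p under 0.05, 22 were lower (15.3% of all genes) and 6 higher (10.4% of all genes). Both knockout arrays lay below both control arrays in 33 members (61.1%, against 32.5% of all genes) and above them in 7 (13%, against 27.1%).

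**Figure D1:**
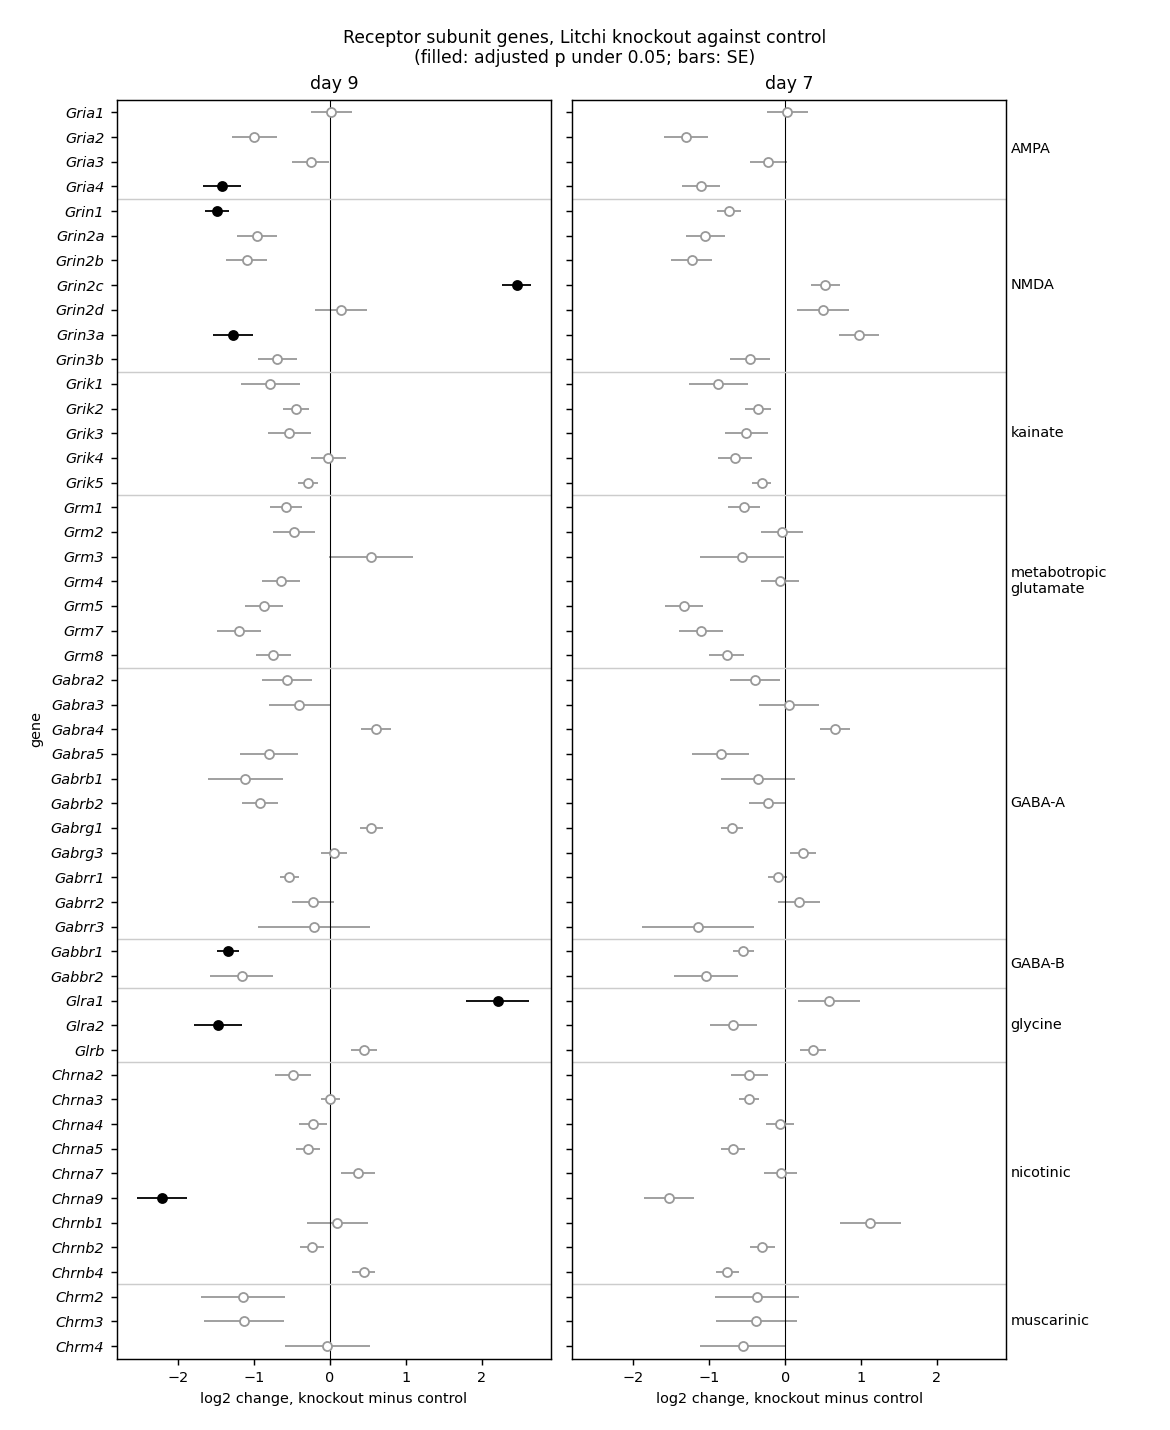
Log2 change (knockout minus control, x axis) of 51 of the kept receptor subunit genes, one gene per line and grouped by family, on day 9 (left) and day 7 (right). Points are limma estimates with SE bars, filled where the adjusted p is under 0.05: 8 genes are filled on day 9 and 0 on day 7.

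Among ionotropic glutamate receptor genes, Gria4, Grin1 and Grin3a fell on day 9. Grin1 encodes the subunit that every NMDA receptor needs, and stood at -3.11 and -3.22 in knockout cells, against -1.52 and -1.84 in control cells. The groups did not overlap, and Grin1 fell by 1.48 ± 0.16 (adjusted p = 0.0153). A dimmer probe of the gene stood at -0.92 ± 0.30 without passing (adjusted over probes, 0.129). Gria4, which encodes an AMPA subunit with fast kinetics, stood at 0.22 and -0.13 in knockout cells, against 1.67 and 1.26 in control cells. It fell by 1.42 ± 0.25 (0.0342), and its other probe stood at -1.06 ± 0.17 (0.0293 over probes). The Gria4 call was lost in 9 of 17 alternatives and the Grin1 call in 6 of 17. Gria2, whose subunit makes AMPA receptors impermeable to calcium, stood at -2.41 and -2.48 in knockout cells and -1.06 and -1.84 in control cells, a change of -0.99 ± 0.29 that did not pass (0.0978). Gria1 showed nearly level values, -1.99 and -2.37 in knockout cells against -2.37 and -2.03 in control cells (0.02 ± 0.27, 0.974).

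The other NMDA subunit genes went in different directions on day 9. Grin2c encodes a modulatory subunit best known from the adult cerebellum, and had -2.29 and -1.83 in knockout cells, against -4.62 and -4.42 in control cells. Both knockout arrays were far above both control arrays, and Grin2c rose by 2.46 ± 0.19 (adjusted p = 0.00753), the largest change of any member that day. Grin3a, which encodes a subunit that lowers the calcium permeability of NMDA receptors in rodents, had -4.19 and -4.44 in knockout cells, against -2.96 and -3.12 in control cells (-1.27 ± 0.26, 0.0472). The Grin3a call was lost in 11 of 16 alternatives, median centring among them. The genes of the main forebrain and spinal modulatory subunits, Grin2a and Grin2b, stood at -0.96 ± 0.26 (0.0825) and -1.09 ± 0.27 (0.068), with no overlap between groups. Their dimmer probes stood at -1.60 ± 0.56 for Grin2a (0.15 over probes) and -1.47 ± 0.20 for Grin2b (0.023 over probes). Kainate subunit genes had 5 of 5 negative changes and 0 calls by limma (1 at an unadjusted p under 0.05), Grik2 having the smallest p. Grik2 had -5.42 and -5.09 in knockout cells, against -4.78 and -4.85 in control cells (-0.44 ± 0.17, 0.164).

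Metabotropic glutamate receptor genes had 6 of 7 negative changes on day 9 and 0 calls by limma, with 5 lower at an unadjusted p under 0.05. Grm7, which encodes a presynaptic receptor that dampens release, was nearest to the threshold, at -1.99 and -2.49 in knockout cells against -1.03 and -1.09 in control cells (-1.19 ± 0.29, adjusted p = 0.069). Grm3 was the exception in sign, at 0.54.

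On the inhibitory side, Gabbr1 was called and no GABA-A gene was. Gabbr1 encodes the GABA-binding subunit of the GABA-B receptor, and stood at 1.36 and 1.23 in knockout cells, against 2.63 and 2.64 in control cells on day 9. The replicates differed by little beside the gap between genotypes, and Gabbr1 fell by 1.34 ± 0.14 (adjusted p = 0.0157). All 3 kept Gabbr1 probes were lower, at -1.34, -1.02 and -1.07. Its partner Gabbr2, which couples the receptor to G proteins, stood at -4.62 and -4.92 in knockout cells and -3.48 and -3.74 in control cells (-1.16 ± 0.42, 0.151). Of 14 GABA-A genes 11 had negative changes and 0 passed by limma (2 higher and 5 lower unadjusted). Gabrg1, a gamma subunit gene, had -0.66 and -0.89 in knockout cells, against -1.23 and -1.42 in control cells (0.55 ± 0.15, 0.081).

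The glycine receptor genes Glra1 and Glra2 changed in opposite directions on day 9. Glra2 stood at -2.16 and -2.59 in knockout cells, against -0.63 and -1.17 in control cells, and fell by 1.47 ± 0.31 (adjusted p = 0.0495). Glra1 stood at -2.55 and -2.29 in knockout cells, against -5.15 and -4.11 in control cells, and rose by 2.21 ± 0.41 (0.0367). Neither pair of groups overlapped, though the control arrays of Glra1 lay apart from each other. The Glra2 call was lost in 13 of 17 alternatives and the Glra1 call in 11 of 17, and the second Glra1 probe stood at 2.69 ± 0.69 (0.0801 over probes). Glrb, the shared beta subunit gene that anchors the receptor to gephyrin, stood at 0.45.

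Of 9 nicotinic genes, Chrna9 alone was called on day 9. Chrna9, known for the efferent synapse of cochlear hair cells, had -7.40 and -6.58 in knockout cells, both below background, against -4.42 and -5.14 in control cells, of which replicate 2 was below background. It was called lower (adjusted p = 0.0241, fitted change -2.21 ± 0.33). No bound on the fold is given, because the control mean includes a value below background. The subunit genes of the common neuronal receptor, Chrna4 and Chrnb2, stood at -0.22 and -0.23. Muscarinic genes had 3 of 3 negative changes and 0 calls by limma, with 0 at an unadjusted p under 0.05. Chrm3, which signals through Gq, had the smallest p, at -6.12 and -5.95 in knockout cells against -4.97 and -4.83 in control cells (-1.13 ± 0.53, 0.236), and 1 of its knockout arrays was below background. The filter kept Chrm3 only through these control arrays, where it was brightest.

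**Figure D2:**
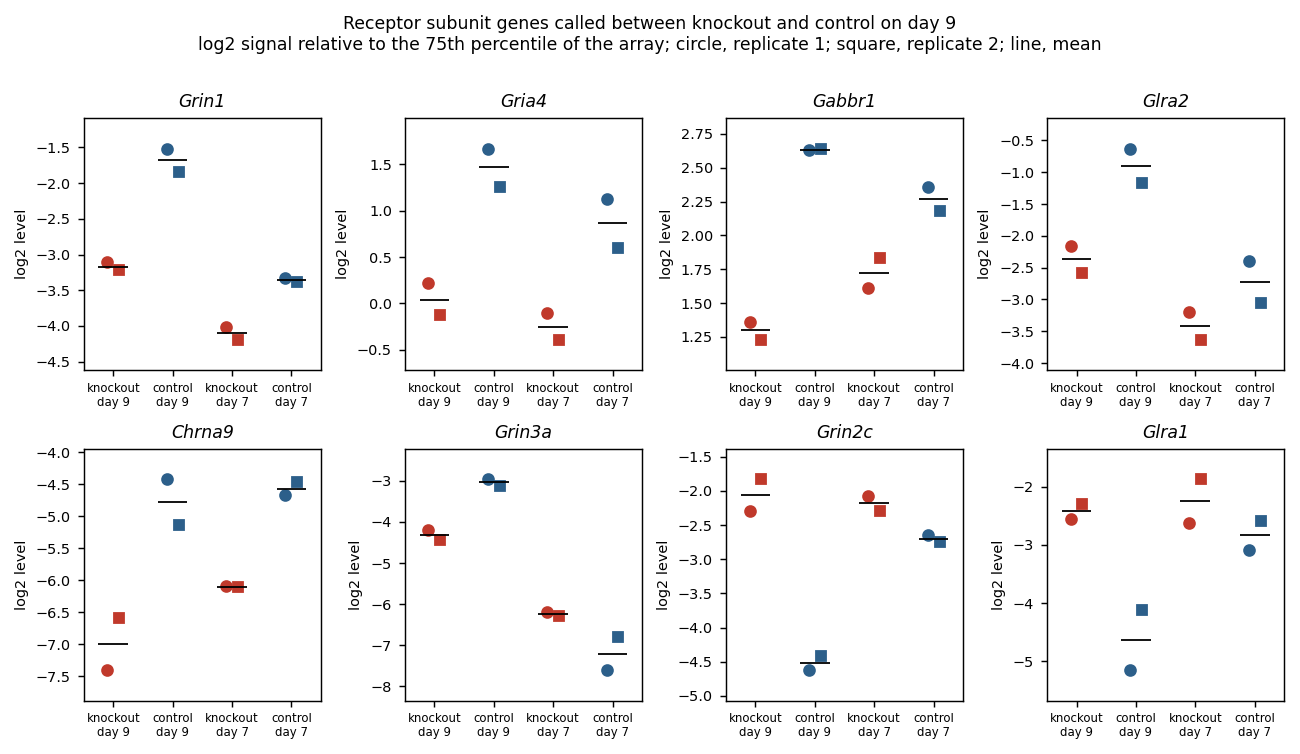
Log2 level (y axis, 0 is the array's 75th percentile) of the 8 receptor subunit genes called between knockout and control on day 9, by array (circle, replicate 1; square, replicate 2; line, group mean; knockout red, control blue). On day 9 the knockout arrays of Grin1, Gria4, Gabbr1, Glra2, Chrna9 and Grin3a lie below the control arrays, and those of Grin2c and Glra1 above.

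To show the region where transcription of the called genes starts, the promoter windows of Gabbr1 and Grin1, which fell, and of Grin2c, which rose, are printed from RefSeq on GRCm38.p6, 250 bases before to 50 after the annotated start, 5′ to 3′ on the gene's strand. Capitals mark the GC box, GGGCGG on either strand, which in Grin2c overlaps itself. Gabbr1 lies at chr17:37045716-37046015 on the plus strand, Grin1 at chr2:25319138-25319437 on the minus strand and Grin2c at chr11:115267194-115267493 on the minus strand.
Gabbr1: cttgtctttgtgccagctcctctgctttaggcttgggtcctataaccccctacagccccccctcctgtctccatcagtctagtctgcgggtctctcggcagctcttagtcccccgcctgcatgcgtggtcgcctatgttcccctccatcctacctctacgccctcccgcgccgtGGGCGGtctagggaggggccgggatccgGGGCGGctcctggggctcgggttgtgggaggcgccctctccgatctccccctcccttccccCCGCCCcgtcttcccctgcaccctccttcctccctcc
Grin1: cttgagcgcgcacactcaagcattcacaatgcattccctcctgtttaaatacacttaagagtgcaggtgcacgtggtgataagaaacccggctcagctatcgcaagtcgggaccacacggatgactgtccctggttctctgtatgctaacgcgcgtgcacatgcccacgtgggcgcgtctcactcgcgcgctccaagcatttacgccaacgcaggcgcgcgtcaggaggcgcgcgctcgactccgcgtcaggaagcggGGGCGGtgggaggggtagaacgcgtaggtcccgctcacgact
Grin2c: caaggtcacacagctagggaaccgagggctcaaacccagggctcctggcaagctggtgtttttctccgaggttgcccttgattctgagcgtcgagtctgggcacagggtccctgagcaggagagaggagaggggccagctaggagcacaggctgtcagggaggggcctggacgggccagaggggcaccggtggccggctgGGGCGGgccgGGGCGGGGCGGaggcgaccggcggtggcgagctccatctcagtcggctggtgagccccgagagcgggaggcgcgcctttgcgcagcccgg
The windows held 3, 1 and 3 GC boxes for Gabbr1, Grin1 and Grin2c. Of 48 windows, from 40 of the 54 kept members, 27 (56.2%) held a GC box. Before the filter, 28 of 55 windows of members with a probe held one (50.9%). Among 32851 promoter windows of RefSeq, which were not filtered by signal, the share was 35.7%. Each printed window holds this motif, whether its gene rose or fell, and the windows of the other called genes are not printed. A match is a description of letters, not a binding site.

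Both members that rose on day 9, Grin2c and Glra1, lie on chromosome 11. The 1251 tested genes with a symbol on chromosome 11 had a median change of 0.38 on day 9, with 76.1% positive and 115 called higher (9.19%), against a median of 0.04 and 1.36% called higher among 13786 genes on other chromosomes. The 7 kept members on chromosome 11 had a median of 0.02, and 2 of the 7 were called. The part of the chromosome-wide shift in the rise of Grin2c and Glra1 was not tested.

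Markers of neurons and of other cells moved between the genotypes beside the receptor genes. All 10 pan-neuronal markers had negative changes on day 9 (median -0.88), and 3 of them fell: Stmn2 (-1.20), Dcx (-1.02) and Nefl (-1.41). On day 9 their summed linear level was 119 and 122 in knockout, against 264 and 210 in control cells. On day 7 it was 259 and 276 in knockout, against 361 and 411 in control cells. Of 8 motor neuron markers, Prph (-1.92), Slc18a3 (-1.44) and Slc5a7 (-2.73) fell on day 9, while Lhx3 rose (0.91). In this list 5 changes were negative and 3 positive. All 6 fibroblast and mural markers were higher in sign on day 9 (median 1.04), with 2 called, and their sum was 139 and 120 in knockout cells against 67.4 and 77.2 in control cells. Of 8 neural progenitor markers, Olig2, Hes5 and Pax6 rose on day 9, and the list's sum was 148 and 166 in knockout cells against 113 and 130 in control cells. The part of these shifts in the receptor results was not tested.

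**Figure D3:**
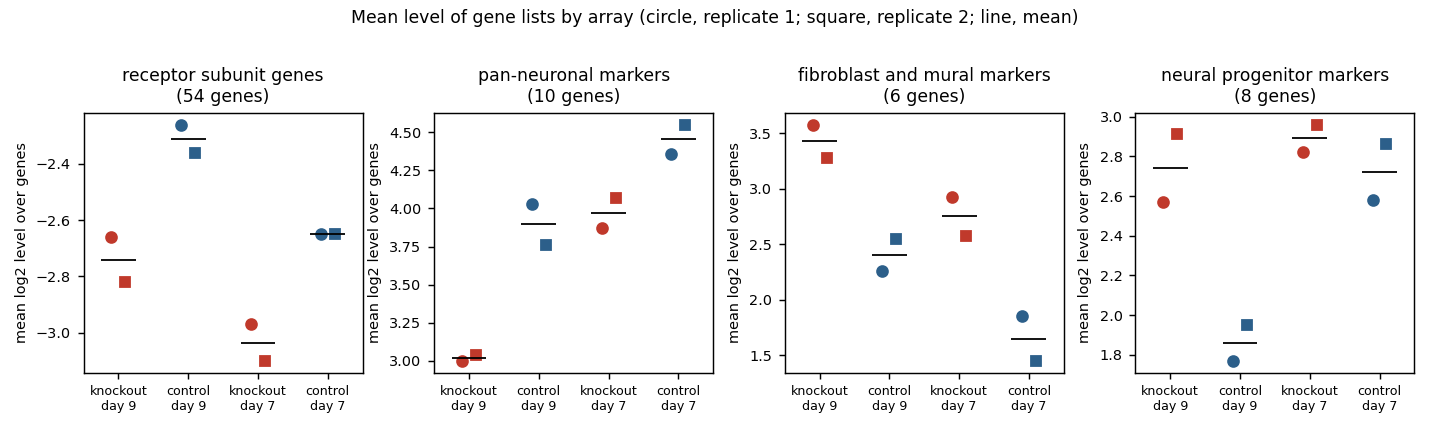
Mean log2 level over genes (y axis) of the 54 receptor subunit genes and of 3 marker lists on each array (circle, replicate 1; square, replicate 2; line, group mean; knockout red, control blue). On both days the receptor and pan-neuronal means are lower, and the fibroblast and mural means higher, in both knockout arrays than in both control arrays.

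The number of day 9 calls depended on the arrays. Of the other day 9 calls, that of Grin2c was lost in 3 of 17 alternatives, that of Gabbr1 in 5 of 17 and that of Chrna9 in 6 of 16. Leaving out replicate 2 of the day 9 knockout turned the 8 calls into 0, leaving out its replicate 1 into 1. Of the day 9 control arrays, omitting replicate 1 gave 1 call and omitting replicate 2 gave 5, and omitting either day 7 knockout array gave 4. Median centring moved the median of all genes to 0.21 and the member calls to 3 higher and 4 lower, with the share of higher calls among all genes at 69.6% instead of 27.5%, so directions are relative to the 75th percentile. The members' median minus that of all genes was -0.51 as reported, which median centring cannot alter, -0.41 with quantile scaling and -0.37 with normexp. The nicotinic median, -0.22, became 0.01 under median centring.

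On day 7, 0 members passed by limma, where 0.215% of all genes were called. At an unadjusted p under 0.05, 18 members were lower (11.8% of all genes) and 4 higher (7.07% of all genes). The changes ran from -1.53 to 1.12 with a median of -0.44, against -0.05 over all genes, and 42 were below 0 (77.8%, against 55.8% of all genes). Both knockout arrays lay below both control arrays in 27 members (50%, against 27.8%) and above them in 5 (9.26%, against 20.5%). Grm5, which encodes a postsynaptic receptor that releases calcium from stores, had the smallest p, at -3.82 and -4.39 in knockout cells against -2.68 and -2.88 in control cells (-1.33 ± 0.25, adjusted p = 0.0934). With the replicate block, 2 members were called. Median centring put the share of higher calls among all genes at 58.5% instead of 45.3%.

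Other genes with the smallest p of their family on day 7 were below control as well, except Glrb. Gria2 had -2.33 and -2.66 in knockout cells, against -0.97 and -1.41 in control cells (-1.30 ± 0.29, adjusted p = 0.107). Grin1 had -4.02 and -4.19 in knockout cells, against -3.33 and -3.39 in control cells (-0.74 ± 0.16, 0.0994). Chrnb4, which encodes a beta subunit of autonomic and habenular nicotinic receptors, had -0.37 and -0.27 in knockout cells, against 0.58 and 0.30 in control cells (-0.76 ± 0.15, 0.0953). None of these groups overlapped. Gabrg1 had -0.93 and -0.95 in knockout cells, against -0.31 and -0.19 in control cells (-0.70 ± 0.15, 0.0982). Gabbr1 had 1.61 and 1.83 in knockout cells, against 2.36 and 2.18 in control cells (-0.55 ± 0.14, 0.134). The kainate gene Grik4 stood at -0.66 ± 0.23 (0.201), Glrb at 0.37 ± 0.17 (0.297) and Chrm4 at -0.56 ± 0.56 (0.635). Pan-neuronal markers had a median of -0.48 on day 7 with 10 of 10 negative and 0 called, and fibroblast and mural markers one of 1.05 with 6 of 6 positive and 0 called.

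Averaged over both days, which sets 4 knockout arrays against the 4 control arrays already used above, 13 members fell and 3 rose. These are 24.1% and 5.56% of the members, against 9.35% lower and 5.48% higher among all genes (14.8% in either direction), and the median was -0.44 against -0.04. At an unadjusted p under 0.05, 26 were lower (20.3% of all genes) and 4 higher (13.4% of all genes). Grin1, Grin2c and Gabbr1 kept their calls under all 16 alternatives run for this contrast, at -1.11 ± 0.11 (adjusted p = 0.00674), 1.49 ± 0.14 (0.00576) and -0.94 ± 0.10 (0.00744). Gria2 (-1.15 ± 0.20, 0.0206) and Gria4 (-1.27 ± 0.18, 0.0135) fell among AMPA genes. Among NMDA genes, Grin2a (-1.0 ± 0.18, 0.0212) and Grin2b (-1.16 ± 0.19, 0.0176) fell beside Grin1. Grin2a had -3.89 and -4.25 in knockout cells against -3.01 and -3.22 in control cells on day 9. On day 7 the values were -4.58 and -4.80 against -3.30 and -3.98. Grin2b had -2.96 and -3.38 in knockout cells against -1.86 and -2.30 in control cells on day 9. On day 7 the values were -3.70 and -4.24 against -2.90 and -2.59. In both genes every knockout array lay below both control arrays of its day.

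The average also brought in metabotropic glutamate genes. Grm5 fell by 1.1 ± 0.18 (adjusted p = 0.0176), Grm7 by 1.15 ± 0.21 (0.0212) and Grm8, another presynaptic receptor gene, by 0.75 ± 0.17 (0.0331). A dimmer Grm5 probe stood at -0.22 ± 0.15 (0.349 over probes), so the size for Grm5 rests on the brighter probe. Grm8 had -3.33 and -3.88 in knockout cells against -2.75 and -2.98 in control cells on day 9. On day 7 the values were -4.80 and -4.69 against -3.77 and -4.19.

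Among inhibitory receptor genes, Glra2 fell by 1.08 ± 0.22 (adjusted p = 0.0275), while Glra1 (1.39 ± 0.29, 0.0281) and Gabra4 (0.64 ± 0.14, 0.0343) rose. Gabra4 had -4.71 and -4.32 in knockout cells against -5.07 and -5.18 in control cells on day 9. On day 7 the values were -5.40 and -5.73 against -6.37 and -6.08, with 4 of its 8 values below background. Gabra4 was kept only through the day 9 knockout arrays, where it was brightest, and its call was lost in 10 of 15 alternatives. Chrna9 was called lower (0.0104), and no size is given because both knockout arrays of day 9 and 1 of day 7 were below background. It was kept only through the day 7 control arrays, where it was brightest, and these are part of this contrast. Chrna5, an accessory nicotinic subunit gene, fell by 0.49 ± 0.12 (0.0393). The calls of Chrna5 and Grm8 were lost under quantile scaling, median centring and the deposited values, and in 12 and 11 of 16 alternatives in all. Those of Glra1, Glra2, Grin2a and Gria2 were lost in 8, 7, 7 and 5 of 16. The calls of Grin2b and Grm5 were lost in 3 of 16 each, Gria4 in 2 of 16, Grm7 in 4 of 15 and Chrna9 in 2 of 15. Kainate (Grik2 at -0.40 ± 0.12, 0.0662) and muscarinic (Chrm3 at -0.76 ± 0.37, 0.207) genes had 0 calls by limma, with 4 kainate and 0 muscarinic genes lower at an unadjusted p under 0.05. The 16 calls became 4 and 9 on leaving out replicate 2 or replicate 1 of the day 9 knockout, 6 on leaving out replicate 1 of the day 9 control, and 10 and 9 on leaving out replicate 1 or 2 of the day 7 knockout. Under median centring 4 members were called higher and 11 lower, with 73.4% of all calls higher instead of 37%. In this contrast 8 of 10 pan-neuronal markers fell and all 6 fibroblast and mural markers rose.

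Whether the knockout effect differed between the days was tested as an interaction, day 9 minus day 7. By limma 0 members passed, where 0.00406% of all genes were called, and 5 members were higher (2.68% of all genes) and 3 lower (3.33% of all genes) at an unadjusted p under 0.05. Grin2c had the smallest p, with a knockout effect of 2.46 on day 9 and 0.53 on day 7 (difference 1.93 ± 0.27, adjusted p = 0.33). Grin3a differed by -2.24 ± 0.37 (0.555), though both groups of day 7 were below background. Gabrg1 stood at 0.55 on day 9 and -0.70 on day 7 (1.25 ± 0.21, 0.555), and Chrnb4 at 0.45 and -0.76 (1.21 ± 0.21, 0.63). Glra1 differed by 1.62 ± 0.58 (0.826) and Gabbr1 by -0.79 ± 0.20 (0.744). The members with the smallest p of the other families were Gria4 (-0.31 ± 0.36, 0.931), Grik4 (0.64 ± 0.32, 0.849), Grm4 (-0.57 ± 0.35, 0.876) and Chrm3 (-0.75 ± 0.75, 0.917). So no member's knockout effect was shown to differ between day 9 and day 7.

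Between day 7 and day 9, several genes of NMDA, metabotropic glutamate and GABA-A receptors rose and the nicotinic genes Chrna3 and Chrnb4 fell in both genotypes. In knockout cells 11 members rose (20.4%, against 4.14% of all genes) and 4 fell (7.41%, against 4.17%), with 8.31% of all genes called. In control cells 12 were called higher (22.2%, against 4.11% of all genes) and 8 fell (14.8%, against 3.26%), with 7.36% of all genes called. The members' median was 0.19 in knockout cells and 0.31 in control cells, beside -0.12 over all genes in each. At an unadjusted p under 0.05, 17 members were higher and 10 lower in knockout cells (11% and 15% of all genes), and 17 higher and 9 lower in control cells (10.5% and 15.6% of all genes). Both day 9 arrays lay above both day 7 arrays in 24 members in knockout cells (44.4%, against 22.1% of all genes) and in 26 in control cells (48.1%, against 18.9%). They lay below in 13 members in knockout (24.1%) and 12 in control cells (22.2%), against 35.9% of all genes in each. The genotypes share no array here, but both contrasts take their spread from the same fit of all 8 arrays, so their calls are not independent. In both, 10 genes were called higher, 90.9% of the knockout calls and 83.3% of the control calls, and 3 fell, 75% and 37.5%. Of the 10, Grin3a, Gabrb1, Grin2d and Gabra4 were kept only through day 9 groups, where they were brighter. Among these 10, Grin2d was below background on all 4 control arrays, so that its control call sets dim signals against each other.

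**Figure D4:**
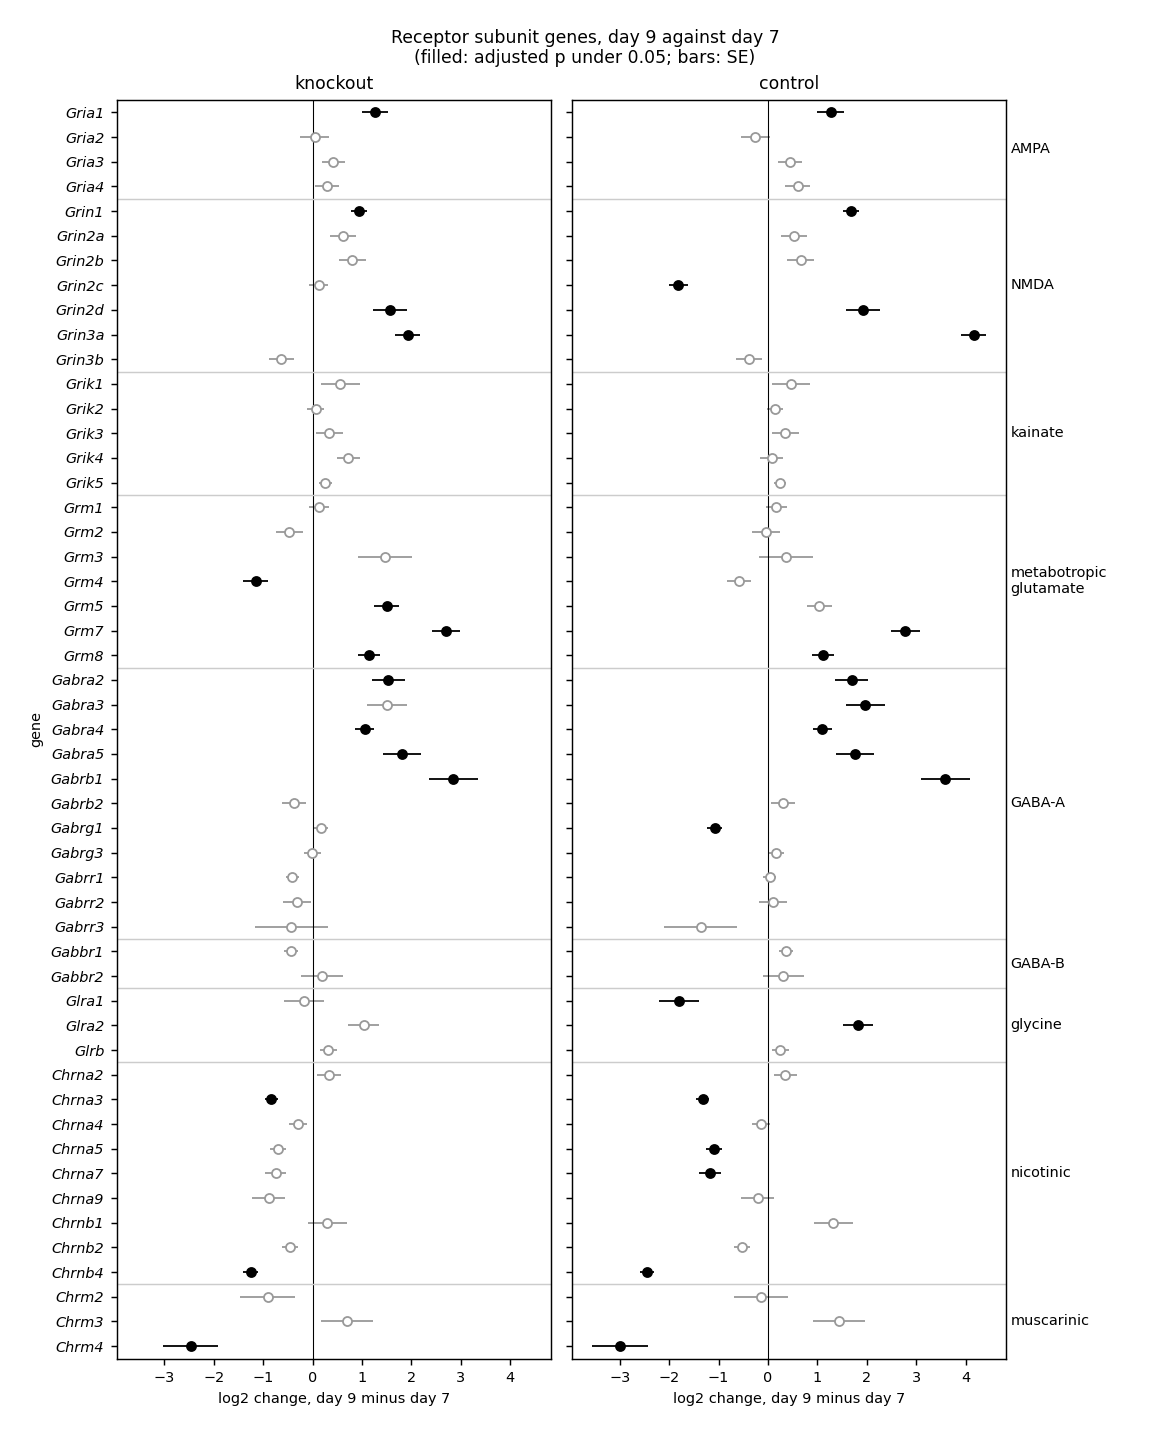
Log2 change (day 9 minus day 7, x axis) of 51 of the kept receptor subunit genes, one gene per line and grouped by family, in knockout (left) and control cells (right). Points are limma estimates with SE bars, filled where the adjusted p is under 0.05: 15 genes are filled in knockout and 20 in control cells.

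Of the 7 NMDA subunit genes, 3 were called higher with time in each genotype, Grin1, Grin2d and Grin3a. By their brightest probes Grin2a and Grin2b did not pass in either genotype, and Grin3b stood at -0.63 in knockout and -0.39 in control cells. The dimmer Grin2b probe was higher on day 9, by 1.04 ± 0.20 in knockout (0.0333 over probes) and 1.80 ± 0.20 in control cells (0.0102 over probes). Grin3a had -4.19 and -4.44 on day 9 against -6.18 and -6.29 on day 7 in knockout cells, and -2.96 and -3.12 against -7.60 and -6.80 in control cells. As all 4 day 7 values were below background, only bounds hold: Grin3a was at least 2.58-fold higher in knockout (adjusted p = 0.0108) and at least 5.72-fold higher in control cells (0.0052). Grin1 rose by 0.94 ± 0.16 in knockout (0.0192) and by 1.68 ± 0.16 in control cells (0.00729). Its 2 probes disagreed here, since the dimmer one stood at -0.95 ± 0.30 and -0.68 ± 0.30, so the rise of Grin1 rests on the brighter probe. Grin2d, an early modulatory subunit gene, was at least 1.43-fold higher on day 9 in knockout cells (0.0418), where it had -5.34 and -5.25 against -7.26 and -6.47. In control cells Grin2d was below background on both days and no fold is given (-5.67 and -5.21 on day 9, -7.72 and -7.01 on day 7, adjusted p = 0.0285). Grin2c stood at 0.12 ± 0.19 in knockout cells (0.732) and fell by 1.82 ± 0.19 in control cells (0.00884). The difference between these changes is the interaction given above, which did not pass.

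Among other glutamate receptor genes, Gria1 rose in both genotypes, by 1.26 ± 0.27 in knockout (adjusted p = 0.0416) and 1.27 ± 0.27 in control cells (0.0452). These calls were lost in 9 of 17 and 12 of 17 alternatives, the replicate block among them in both. Its levels were -1.99 and -2.37 on day 9 against -3.19 and -3.69 on day 7 in knockout cells, and -2.37 and -2.03 against -3.73 and -3.19 in control cells. Grm7 rose most among the metabotropic genes, by 2.7 ± 0.29 in knockout (0.00701) and 2.78 ± 0.29 in control cells (0.00878). It had -1.99 and -2.49 on day 9 against -4.58 and -5.30 on day 7 in knockout cells, where the last value was below background, and -1.03 and -1.09 against -3.62 and -4.05 in control cells. Grm8 rose by 1.14 ± 0.23 (0.0355) and 1.11 ± 0.23 (0.0426). Grm5 rose by 1.5 ± 0.25 in knockout cells (0.0202) and stood at 1.04 ± 0.25 in control cells (0.06), but its dimmer probe stood at -0.09 and -0.13. Grm4, a presynaptic receptor gene, had -5.15 and -5.30 on day 9 against -4.22 and -3.92 on day 7 in knockout cells, with 1 day 9 value below background, and fell by 1.15 ± 0.25 (0.0404). Its second probe stood at -0.09 ± 0.20, and the call was lost in 13 of 17 alternatives. Kainate genes had 5 of 5 positive changes in each genotype (38.2% of all genes were positive in knockout and 37.3% in control cells) and 0 calls by limma, with 1 higher in knockout and 0 in control cells at an unadjusted p under 0.05. The smallest p belonged to Grik4 in knockout cells (0.72 ± 0.23, 0.109) and Grik5 in control cells (0.24 ± 0.13, 0.30).

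Several alpha subunit genes and Gabrb1 rose among GABA-A receptors. Gabrb1 had -3.61 and -4.99 on day 9 against -7.04 and -7.25 on day 7 in knockout cells, and -3.67 and -2.71 against -6.62 and -6.94 in control cells. All day 7 values were below background, and Gabrb1 was at least 2.85-fold higher on day 9 in knockout (adjusted p = 0.0213) and at least 5.15-fold higher in control cells (0.016). Gabra5, whose subunit sits in extrasynaptic receptors, had -2.74 and -2.81 on day 9 against -4.21 and -4.95 on day 7 in knockout cells, and -1.70 and -2.25 against -3.27 and -4.19 in control cells. It rose by 1.81 ± 0.38 (0.0386) and 1.76 ± 0.38 (0.0456). Gabra2, an early synaptic alpha subunit gene, rose by 1.53 ± 0.33 in knockout (0.0402) and 1.69 ± 0.33 in control cells (0.035). Gabra4 rose by 1.05 ± 0.20 in knockout cells (0.0293) and was called higher in control cells (0.0305). There both day 7 arrays and 1 day 9 array were below background, so no fold is given. Gabra3 stood at 1.51 ± 0.40 in knockout cells (0.0719) and rose by 1.97 ± 0.40 in control cells (0.0406). Gabrg1 went against these genes in control cells, with -1.23 and -1.42 on day 9 against -0.31 and -0.19 on day 7, and fell by 1.08 ± 0.15 (0.0156). In knockout cells Gabrg1 stood at 0.17 ± 0.15 (0.508). The GABA-B genes had 0 calls by limma, with Gabbr1 at -0.43 ± 0.14 in knockout (0.126) and 0.36 ± 0.14 in control cells (0.176), each of them under an unadjusted p of 0.05.

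In control cells the early glycine receptor gene rose and the adult one fell. Glra2 rose by 1.82 ± 0.31 (adjusted p = 0.0259), to -0.63 and -1.17 on day 9 against -2.40 and -3.05 on day 7, and Glra1 fell by 1.80 ± 0.41 (0.0497), to -5.15 and -4.11 against -3.08 and -2.58, a call lost in 14 of 17 alternatives. In knockout cells 0 glycine genes passed by limma (1 higher unadjusted): Glra2 stood at 1.03 ± 0.31 (0.0971), with -2.16 and -2.59 on day 9 against -3.19 and -3.63 on day 7, and Glra1 at -0.17 ± 0.41 (0.814), with -2.55 and -2.29 against -2.62 and -1.87. The knockout effect on day 9 and the time change of control cells share the control day 9 arrays. For Glra2 these are -1.47 and 1.82, for Glra1 2.21 and -1.80, for Grin2c 2.46 and -1.82 and for Grin1 -1.48 and 1.68.

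**Figure D5:**
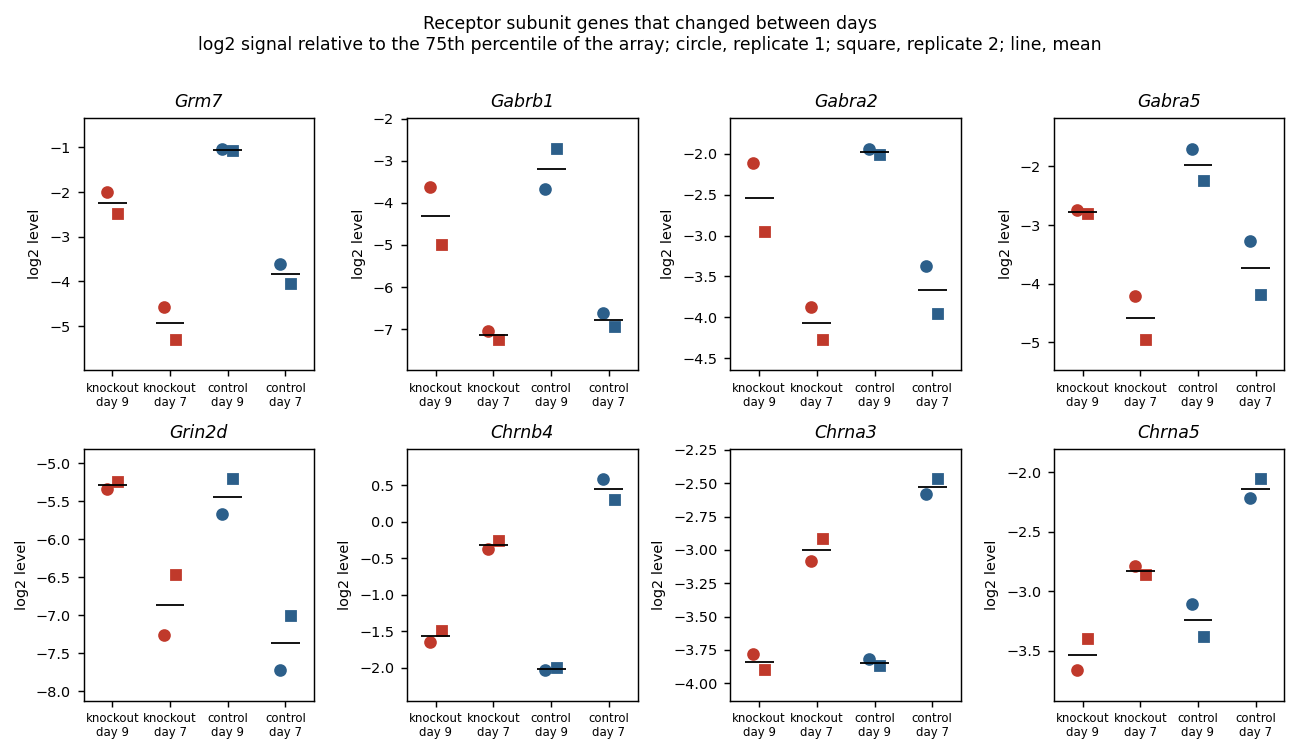
Log2 level (y axis, 0 is the array's 75th percentile) of 8 receptor subunit genes by array (circle, replicate 1; square, replicate 2; line, group mean; knockout red, control blue), with day 9 left of day 7 in each genotype. Grm7, Gabrb1, Gabra2 and Gabra5 are higher, and Chrnb4, Chrna3 and Chrna5 lower, on both day 9 arrays than on both day 7 arrays of each genotype; Grin2d is higher in knockout cells, and its 4 control arrays are below background.

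The calls among nicotinic genes were lower with time, 2 in knockout and 4 in control cells. Those shared by both genotypes were Chrnb4 and Chrna3, which together form the ganglionic type of receptor and lie beside Chrna5 in a gene cluster on chromosome 9. Chrnb4 had -1.65 and -1.49 on day 9 against -0.37 and -0.27 on day 7 in knockout cells, and -2.03 and -2.0 against 0.58 and 0.30 in control cells. The days did not overlap in either genotype, and Chrnb4 fell by 1.25 ± 0.15 in knockout (adjusted p = 0.00796) and by 2.45 ± 0.15 in control cells (0.00473). Chrna3 had -3.78 and -3.90 on day 9 against -3.08 and -2.92 on day 7 in knockout cells, and -3.82 and -3.87 against -2.58 and -2.47 in control cells. It fell by 0.84 ± 0.13 (0.0167) and 1.32 ± 0.13 (0.0082), and on day 9 it differed between knockout and control cells by 0.01 ± 0.13 (0.977). Chrna5 stood at -0.70 ± 0.16 in knockout cells (0.0502) and fell by 1.1 ± 0.16 in control cells (0.019). Its levels were -3.66 and -3.40 on day 9 against -2.79 and -2.86 on day 7 in knockout cells, and -3.11 and -3.38 against -2.22 and -2.06 in control cells. Chrna7, which forms homomeric receptors, stood at -0.75 ± 0.22 in knockout cells (0.0905) and fell by 1.18 ± 0.22 in control cells (0.0316).

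The promoter windows of Chrna3 and Chrnb4, the clustered pair that fell together in both genotypes, are shown from RefSeq on GRCm38.p6 as above, Chrna3 at chr9:55026513-55026812 and Chrnb4 at chr9:55048495-55048794, both on the minus strand, with the GC box in capitals.
Chrna3: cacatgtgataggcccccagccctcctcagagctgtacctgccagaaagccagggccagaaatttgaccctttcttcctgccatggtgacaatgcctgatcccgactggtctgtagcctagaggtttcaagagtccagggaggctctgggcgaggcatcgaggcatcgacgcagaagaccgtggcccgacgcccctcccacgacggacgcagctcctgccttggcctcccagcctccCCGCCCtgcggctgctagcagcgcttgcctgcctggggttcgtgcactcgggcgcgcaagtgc
Chrnb4: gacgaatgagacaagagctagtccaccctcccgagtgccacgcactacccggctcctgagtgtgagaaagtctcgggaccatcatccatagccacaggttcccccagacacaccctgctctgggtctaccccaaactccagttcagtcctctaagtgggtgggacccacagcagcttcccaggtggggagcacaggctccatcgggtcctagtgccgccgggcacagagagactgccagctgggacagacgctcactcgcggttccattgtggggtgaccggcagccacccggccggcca
Chrna3 held 1 GC box, and in Chrnb4 these letters are not in the window.

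The only muscarinic gene called between the days was Chrm4, which signals through Gi. Chrm4 had -4.36 and -4.48 on day 9 against -2.0 and -1.90 on day 7 in knockout cells, and fell by 2.47 ± 0.56 (adjusted p = 0.0461). In control cells it had -3.50 in replicate 1 and -5.28, below background, in replicate 2, against -1.82 and -0.96, and fell by 3.00 ± 0.56 (0.0316). The control replicates of day 9 lay far apart.

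Markers of several cell types moved with time. Of 8 motor neuron markers 5 fell in knockout and 4 in control cells, with a summed linear level of 12.1 and 15.1 on day 9 against 42.3 and 46.8 on day 7 in knockout cells, and 23.4 and 15.4 against 46.2 and 48.1 in control cells. Pan-neuronal markers had medians of -0.79 in knockout and -0.52 in control cells, with 4 and 2 called lower. Other lists had members that rose. The astrocyte marker Aldh1l1 rose by 3.78 ± 0.44 in knockout (adjusted p = 0.00771) and 2.22 ± 0.44 in control cells (0.0374), and the fibroblast marker Dcn by 1.93 ± 0.30 (0.0162) and 2.14 ± 0.30 (0.017). Aldh1l1 was the 1 call among 4 measured astrocyte markers in each genotype. The astrocyte sum was 177 and 195 on day 9 against 121 and 159 on day 7 in knockout cells. In control cells it was 175 and 221 against 152 and 216. Of 8 neural progenitor markers, 2 rose and 2 fell in knockout cells, and 0 rose and 3 fell in control cells. The fibroblast and mural sum was 139 and 120 on day 9 against 68.9 and 50.7 on day 7 in knockout cells, and 67.4 and 77.2 against 36.2 and 24.6 in control cells. Gad1, a marker of inhibitory neurons, stood at 1.24 ± 0.29 in knockout (0.0501) and rose by 1.82 ± 0.29 in control cells (0.0215), and the list's sum was 12.1 and 8.98 on day 9 against 7.47 and 7.84 on day 7 in knockout cells, and 14.1 and 14.3 against 8.59 and 9.41 in control cells. The part of these marker shifts in the receptor changes was not tested. Of the 15 calls in knockout cells, that of Grm7 was lost in 0 of 16 alternatives and that of Chrnb4 in 2 of 17, and of the 20 in control cells that of Chrnb4 in 0 of 17, while the others were lost in at least 1. Among these others in control cells, Gabra5 and Grm8 were lost in 11 of 17 each, Gabra2 and Gabra3 in 9 of 17 each and Chrm4 in 9 of 16. Among those in knockout cells, Chrm4 was lost in 10 of 16, Gabra2 in 8 of 17, Grm8 in 7 of 17 and Gabra5 in 5 of 17. The 15 calls in knockout cells became 1 and 4 on leaving out replicate 1 or 2 of the day 9 arrays, and 5 and 1 on leaving out replicate 1 or 2 of the day 7 arrays. The 20 calls in control cells became 12 and 4 on leaving out replicate 1 or 2 of day 9, 11 and 2 on leaving out replicate 1 or 2 of day 7, and 13 on leaving out any 1 knockout array. Under median centring the share of higher calls among all genes was 68.2% instead of 49.9% in knockout and 67.6% instead of 55.8% in control cells, while the members had 11 higher and 4 lower calls in knockout and 12 and 7 in control cells. The muscarinic median in control cells, -0.14, became 0.04 with normexp, and the GABA-B median in knockout cells, -0.12, became 0.05 with median centring.

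Genes that work with these receptors were counted alongside them. Of 26 measured glutamate receptor partners, 4 fell and 0 rose in knockout cells on day 9 (median -0.31), where 3.96% of all genes fell and 1.5% rose. They were the AMPA auxiliary subunit genes Cacng2 (-1.65 ± 0.20, adjusted p = 0.0188) and Cnih2 (-0.97 ± 0.18, 0.0378), the secreted AMPA receptor partner Olfm1 (-0.81 ± 0.14, 0.0322) and, named after its value was seen, the scaffold gene Shank1 (-1.04 ± 0.22, 0.0472). With time, 6 partners were called higher and 0 lower in each genotype, where 4.14% of all genes were called higher in knockout and 4.11% in control cells. Shisa9 rose by 2.19 ± 0.17 in knockout (0.00482) and 1.90 ± 0.17 in control cells (0.00707), and Cacng3 rose by 2.53 ± 0.33 in knockout cells (0.00982). In control cells Cacng3 was below background on day 7 and passed the test (0.0082), and no fold is given. Both genes encode auxiliary AMPA receptor proteins.

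Of 13 measured GABA and glycine partners, 2 fell in knockout cells on day 9 and 0 rose (3.96% and 1.5% of all genes): Gad2, which makes GABA (-1.07 ± 0.17, adjusted p = 0.0275), and Kctd12, a cytosolic auxiliary subunit gene of GABA-B receptors (-1.33 ± 0.22, 0.0289). With time 2 rose in each genotype (4.14% of all genes in knockout and 4.11% in control cells), and the glycine transporter gene Slc6a9 was among them in both (1.16 ± 0.13 in knockout, 0.00736, and 0.88 ± 0.13 in control cells, 0.0191). Of 11 measured acetylcholine partners 3 fell in knockout cells on day 9, where 3.96% of all genes fell. They were Ache, which breaks down acetylcholine (-1.43 ± 0.14, 0.0142), the vesicular transporter gene Slc18a3 (-1.44 ± 0.23, 0.0275) and the choline transporter gene Slc5a7 (-2.73 ± 0.40, 0.024), of which Slc18a3 and Slc5a7 are also motor neuron markers. With time, 2 rose and 2 fell in knockout (4.14% and 4.17% of all genes) and 3 rose and 1 fell in control cells (4.11% and 3.26% of all genes). Lynx1, a brake on nicotinic receptors, rose by 1.38 ± 0.18 (0.00902) and 1.67 ± 0.18 (0.00878), and Tmem35a, a chaperone gene of nicotinic receptors, by 1.40 ± 0.15 (0.00682) and 1.14 ± 0.15 (0.014). These chaperone and brake genes rose while Chrna3 and Chrnb4 fell. On day 7, 0 partner genes of these 3 groups passed between the genotypes by limma, where 0.215% of all genes were called. At an unadjusted p under 0.05, 0 were higher and 5, 3 and 4 lower, where 7.07% of all genes were higher and 11.8% lower.

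Of 18 other ionotropic subunit genes outside the naming rule, 9 were measured. On day 9 the ATP-gated channel gene P2rx2 fell in knockout cells (-0.80 ± 0.16, adjusted p = 0.0452) and 0 rose, where 3.96% of all genes fell and 1.5% rose. The list had a median of -0.08, with 4 positive and 5 negative changes. The GABA-A genes Gabre, Gabrp and Gabrq, the muscle nicotinic genes Chrnd, Chrne and Chrng, and the serotonin-gated channel genes Htr3a and Htr3b were below background on both arrays of every group. Among the other muscle-type nicotinic genes, Chrna1 was not kept, whereas Chrnb1 was well above background on 7 of 8 arrays.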

How the data were processed

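RNA from 8 samples of mouse cells was read on 1-colour Agilent arrays. The deposited scanner files hold spot intensity, and the scanner's processed signal is, per the file headers, background-subtracted and detrended within each array with Feature Extraction (version 10.5.1, per the submitters' processing notes), not scaled between arrays. Other deposited columns are flags per spot. A value table that the authors deposited holds log2 values with a median near 5.81 on every array, whose offset is unknown here; it served only as an alternative. All 8 arrays lay on 1 slide read in 1 scan, per the file headers, so slide and scan date are no batch.

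Control spots (3671 per array) and outlier spots (104 to 166) were left out, and 0 spots were saturated. Spots of a probe were averaged as log2 processed signal minus the array's 75th percentile. A probe was kept where at least 1 group had it well above background on each array, and the brightest kept probe stood for a gene. Of 55681 probes, 26300 were named through RefSeq accessions (19897 genes) and 1326 accessions found no match. For the 24633 genes tested, 15037 with a symbol, limma 3.58.1 in R 4.3.3 fitted 4 group means over 8 arrays (4 residual and 2.53 prior degrees of freedom; two-sided; Benjamini-Hochberg adjustment), after being tested on simulated data. The wording "at least N-fold" is used only where a group had no array above background and the other group was above it on both. It sets the bright group's mean against the higher, per array, of the gene's signal and the lowest signal well above background. The number of arrays, 2 per group, limits the precision.

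Named are every called member and, per family, the member with the smallest p, with up to 3 called genes per partner list and comparison. Members, lists and markers were chosen with earlier results of these data known. Alternatives were normexp (offset 50), quantile and median scaling, the deposited table, other filters and probe rules, a replicate block, fits of 4 arrays and leaving out each array. A few genes of these families are counted but not reported here by name.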

Additional observations from a re-analysis of the deposited data

How the results depend on the processing

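The counts of called receptor subunit genes moved with several choices. Normexp background correction was run on median spot signals, because the scanner data held no mean signals. It gave 3 calls for knockout against control on day 9 (8 as reported) and 10 for the mean of both days (16). For day 9 against day 7 it gave 5 in knockout cells (15) and 8 in control cells (20). With no filter on dim probes these counts were 0, 3, 2 and 2. Probes bright on all arrays left 9 calls between the days in knockout cells. Fits of only the 4 arrays compared gave 0 calls for the knockout on day 9 and 6 between the days in control cells. Leaving out 1 array at a time gave 0 to 7 calls for the knockout on day 9, 0 to 0 on day 7, 4 to 14 for the mean of both days, 1 to 13 between the days in knockout cells, 2 to 13 in control cells and 0 to 0 for the interaction. With the replicate block, the knockout gave 13 calls on day 9 and 2 on day 7, and the other counts stayed within 1.5 times. Same-numbered arrays were not shown to be paired, as the correlations of replicate differences between groups ran from -0.248 to 0.464; the number coincides with the row of the slide. Of 1445 single-gene values under an alternative, 1066 kept their direction and side of the threshold, 372 lost and 5 gained a call, and 2 reversed: Grin1 between the days in knockout cells, -0.0036 with the mean of its probes, and the Grm4 interaction, 0.15 on probes bright on all arrays. The causes were not tested.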
